A study of Homo sapiens with 11 samples.

Results

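The genes described here are 39 components of the endoplasmic reticulum (ER) folding machinery and of the unfolded protein response (UPR), chosen by gene symbol from the 23228 genes counted in each library. All 39 symbols were found in the count tables, and all 39 passed the filter on low counts that left 15888 genes for testing. By role they are 11 luminal chaperones and cochaperones, 2 lectin chaperones, 6 enzymes of oxidative folding, 6 sensors and transcription factors, 9 components of ER-associated degradation, and 5 subunits of the translocon and of the COPII coat that buds vesicles from the ER.

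RNA was sequenced from 2 established human cancer cell lines, U2OS (osteosarcoma) and MDA-MB231 (basal-type breast cancer), both kept in DMEM with serum. Cells of each line received doxorubicin at 1 µM, etoposide at 20 µM, methyl methanesulfonate (MMS) at 40 µg/mL or paclitaxel at 0.2 µM for 8 h, or the vehicle DMSO. Each drug has 1 library per line, U2OS has 1 DMSO library and MDA-MB231 has 2. Doxorubicin is a DNA intercalator and a topoisomerase II poison, etoposide poisons that enzyme without intercalating, MMS methylates DNA and other nucleophiles, and paclitaxel stabilises microtubules. The MDA-MB231 MMS library and MDA-MB231 DMSO replicate 2 share a title form with the treatment time in it, and that DMSO library is called untreated in its description. Nothing in the labels says that libraries of a group came from separate cultures. In the fit used below, p-values rest on how far the drug effects differed between the 2 lines. The fit has a term for title form, so the difference between the 2 MDA-MB231 DMSO libraries adds nothing to that spread.

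The ER folds secreted and membrane proteins with the help of HSP70-type and HSP90-type chaperones, lectins that hold glycoproteins, and enzymes that form disulfide bonds. When unfolded proteins build up, 3 sensors in its membrane respond. IRE1 (encoded by ERN1) splices XBP1 mRNA into the form that encodes an active transcription factor, ATF6 is cut by site-1 protease (MBTPS1) to release another, and PERK phosphorylates eIF2α, which lowers translation overall and favours ATF4 and its target CHOP (DDIT3). XBP1 and ATF6 are known to act through ER stress elements in the promoters of chaperone genes. Counts per gene do not separate spliced from unspliced XBP1 mRNA, so IRE1 activity itself was not measured.

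The promoter elements through which this pathway is known to act are shown first, since the MMS result below is set beside them. RefSeq promoter windows (GRCh38.p14), each 250 bases before to 50 bases after a transcription start, were at hand for 35 of the 39 members, 2 of them under a newer symbol (ERO1A for ERO1L and ERO1B for ERO1LB). PDIA3, DERL1, DERL3 and SEC24D were not in the table. The ER stress element was searched on both strands as CCAAT, any 9 bases, then CCACG, and the second ER stress element as ATTGG, any 1 base, then CCACG. HSP90B1, CALR and CANX also held an element, were not called with MMS and are not shown. DNAJB9, MANF and ERN1 were called higher with MMS and held neither element. The windows of 5 members called higher with MMS (HSPA5, XBP1, HERPUD1, ERO1LB and CRELD2) and of 3 that were not (HYOU1, PDIA6 and SDF2L1) are shown around the match. Each is read along the strand on which the element reads forward, with its fixed bases in capitals.
HSPA5: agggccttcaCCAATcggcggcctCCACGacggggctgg
XBP1: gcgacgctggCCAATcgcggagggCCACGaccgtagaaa
ERO1LB: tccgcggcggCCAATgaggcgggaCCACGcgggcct
CRELD2: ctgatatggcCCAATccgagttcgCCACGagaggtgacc
PDIA6: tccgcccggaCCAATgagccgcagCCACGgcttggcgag
HERPUD1: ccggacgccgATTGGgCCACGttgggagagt
SDF2L1: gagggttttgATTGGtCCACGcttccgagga
HYOU1: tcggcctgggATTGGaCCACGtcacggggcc
These stretches lie at chr9:125241381-125241419 (minus strand) for HSPA5, chr22:28800593-28800631 (minus) for XBP1, chr1:236282173-236282208 (plus) for ERO1LB, chr22:49918544-49918582 (minus) for CRELD2, chr2:10812843-10812881 (minus) for PDIA6, chr16:56932015-56932045 (plus) for HERPUD1, chr22:21642104-21642134 (minus) for SDF2L1 and chr11:119057370-119057400 (plus) for HYOU1, all upstream of the annotated start.

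The ER stress element was found in the windows of 8 of 35 members (22.9%), which are HSPA5, HSP90B1, CALR, CANX, PDIA6, CRELD2, XBP1 and ERO1LB, against 25 of all 27305 genes in the table (0.0916%). HSP90B1 holds 2 of them. The second element was found in 3 members (8.57%), HYOU1, SDF2L1 and HERPUD1, against 19 of all genes (0.0696%), and HYOU1 holds 2 copies. The core of the UPR element (TGACG followed directly by TGG) was found in 2 members, HYOU1 and DNAJC10 (5.71%), against 0.927% of all genes, and the match in HYOU1 overlaps a second ER stress element. The core of the C/EBP-ATF element (TGATG followed directly by CAAT) was in none of the 35 member genes and in 80 of all genes (0.293%). These elements are textbook features of ER chaperone genes, and a match is a description of the window.

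The libraries held 16774156 to 31588683 reads counted in genes. Of the 39 members, 37 had at least 100 reads in every library, and the fewest reads were those of DERL3, down to 9 in a library. Values per library are CPM, the gene's reads brought to a common library total by the trimmed mean of M values (TMM), and they measure a share of the library, so that fewer cells of a type and less RNA per cell cannot be told apart. The 2 MDA-MB231 DMSO libraries give the only spread within a line and treatment. Their log2 ratios for the members (replicate 2 over replicate 1) ran between -0.30 for SEC61B and 0.62 for DNAJC3, with a median absolute value of 0.18. Of the markers checked, VIM, CD44 and MSN were high in both lines, with VIM at 597 to 2700 CPM in U2OS and 604 to 2660 CPM in MDA-MB231 libraries. The osteoblast and mesenchyme list summed to 673 to 2080 CPM in U2OS, against 124 to 429 CPM in MDA-MB231, and its members did not all point to U2OS. SPARC was at 596 to 1960 CPM in U2OS, against 0.161 to 2.34 CPM in MDA-MB231, and CDH11 at 2.5 to 26.2 CPM in U2OS, against 98.1 to 370 CPM in MDA-MB231. The osteoblast genes BGLAP, COL1A2, SP7 and IBSP stayed under 1 CPM in U2OS, as did the basal keratin KRT5 in MDA-MB231, and another basal keratin, KRT17, was at 147 to 1050 CPM in U2OS, against 0.669 to 9.84 CPM in MDA-MB231. The 8 blood markers summed to between 0.563 and 15.1 CPM per library, and HBB had 0 reads in every library. Marker sums also varied with the drugs. The mesenchymal and basal list summed to 6700 to 7430 CPM with doxorubicin, 1970 to 2240 CPM with etoposide and 2850 to 4660 CPM with MMS, against 4690 to 5810 CPM with DMSO. The luminal breast list summed to 282 to 303 CPM with etoposide, against 613 to 966 CPM with DMSO, and the osteoblast and mesenchyme list to 232 to 2080 CPM with doxorubicin, against 335 to 1040 CPM with DMSO. The part of these markers in the results below was not tested.

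**Figure D1:**
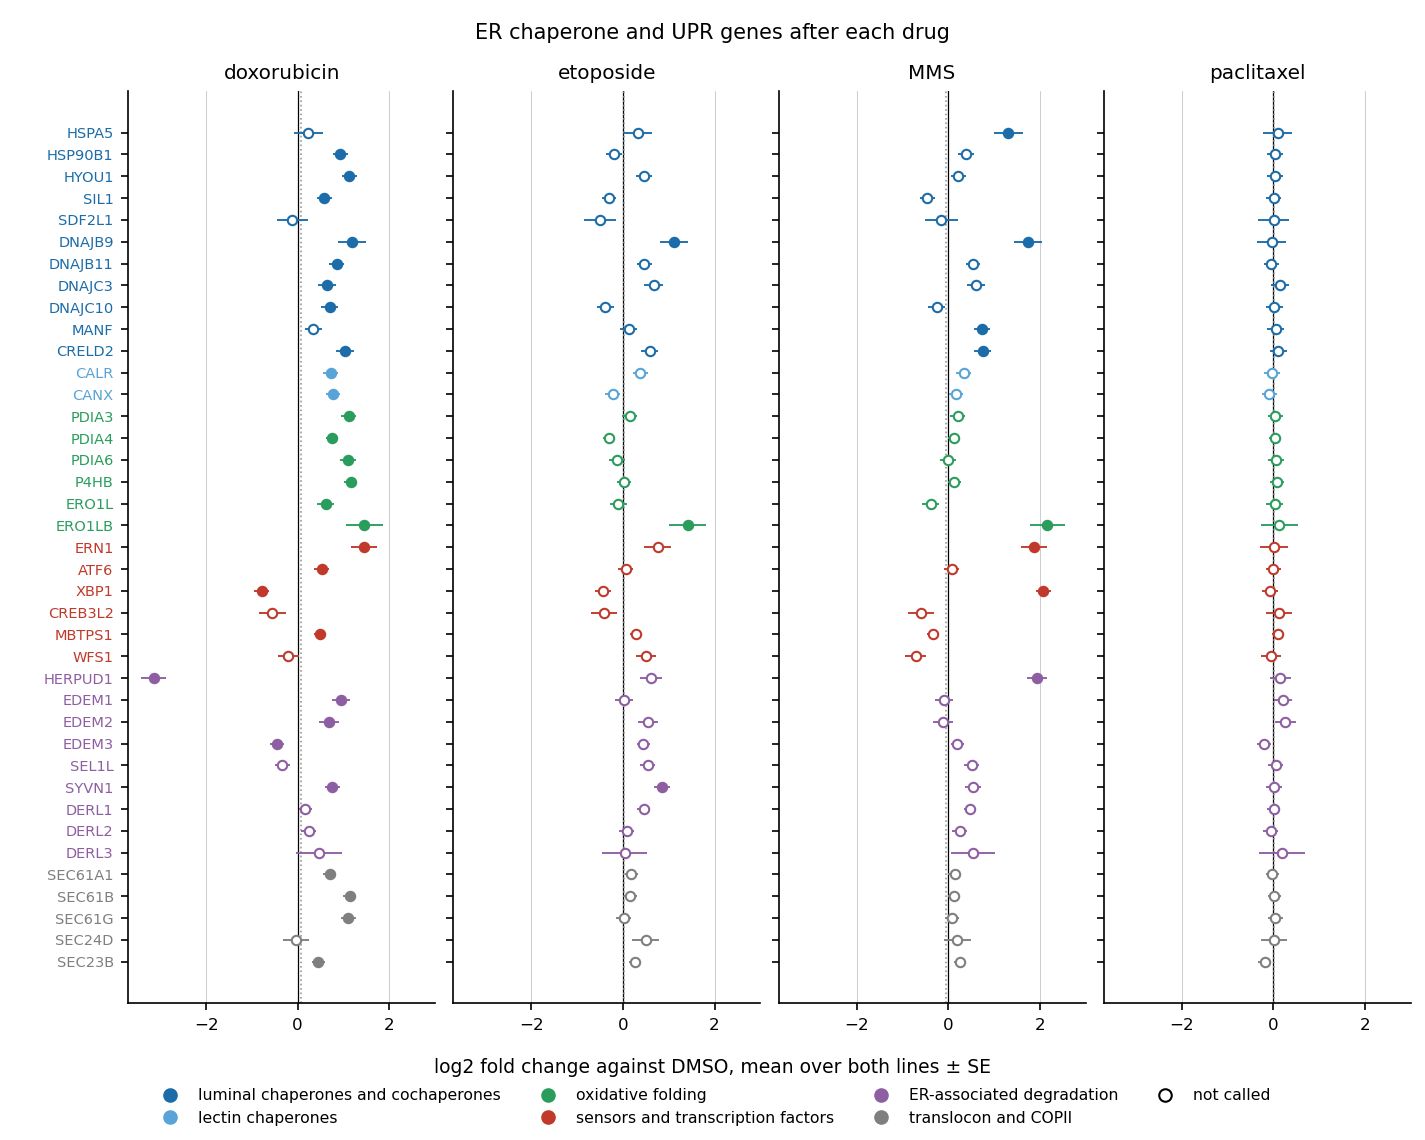
Log2 fold change against DMSO (x axis, mean over both lines ± SE) for the 39 members (y axis, coloured by role) after doxorubicin, etoposide, MMS and paclitaxel. Filled points passed the test at an adjusted p under 0.05, open points did not, and the dotted line is the median of all genes tested. Most members lie right of 0 with doxorubicin apart from HERPUD1 at -3.15, 8 are filled with MMS, and none is filled with paclitaxel.

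Doxorubicin moved most of the folding machinery upward in both lines while it lowered HERPUD1 and XBP1. Drug effects were fitted as the mean over both lines with edgeR's quasi-likelihood test, each drug library against DMSO of its own line and title form, and a gene counts as called where its p, adjusted by Benjamini-Hochberg over all 15888 genes, was under 0.05. With doxorubicin, 26 of the 39 members were called higher and 3 lower, where 21.9% of all genes tested were called higher and 20.6% lower. The median log2 fold change of the members was 0.68, against 0.07 over all genes. The sign was positive in both lines for 30 members, negative in both for 6 and opposite for 3. The doxorubicin libraries also stood furthest from their DMSO libraries of all pairs compared. Their TMM factors were 0.836 in U2OS and 0.92 in MDA-MB231 (0.942 to 1.17 in the other libraries), and their share of reads aligned to several places was 37.5% and 34.4% (28.4% to 32.9% in the others). Scaled to total gene counts instead, the members called were 19 higher and 5 lower, beside 2453 genes higher and 4064 lower over all genes (3476 and 3272 with TMM), and the medians were 0.44 for the members and -0.15 for all genes. Without MDA-MB231 DMSO replicate 1, 18 members were called, where 25.6% of all genes were.

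Among the luminal chaperones, 8 of 11 were called higher with doxorubicin and none lower. HSP90B1, the ER form of HSP90, had 1548 CPM in U2OS and 2177 CPM in MDA-MB231 cells with doxorubicin, against 854 CPM in U2OS DMSO and 1153 and 1234 CPM in MDA-MB231 DMSO. Both doxorubicin libraries lay above every DMSO library, and the log2 fold change was 0.93 ± 0.17 (SE; adjusted p = 0.0029, edgeR). HYOU1, a large HSP70-like protein that exchanges nucleotide on BiP, rose by 1.13 ± 0.17 on the log2 scale. The J-domain proteins DNAJB9, DNAJB11, DNAJC3 and DNAJC10, which hand clients to BiP, rose by 1.18 ± 0.30, 0.85 ± 0.16, 0.64 ± 0.20 and 0.70 ± 0.19 on the log2 scale. DNAJB9 had 66.7 CPM in U2OS and 47.4 CPM in MDA-MB231 cells with doxorubicin, against 23.0 CPM in U2OS DMSO and 29.9 and 30.1 CPM in MDA-MB231 DMSO, so that its gain was larger in U2OS. CRELD2, an ER-resident protein with disulfide-rich repeats, rose by 1.03 ± 0.19, and SIL1, another nucleotide exchange factor of BiP, by 0.58 ± 0.16. The calls for DNAJC3 and SIL1 were lost in 10 and 7 of 19 alternatives.

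HSPA5, which encodes BiP itself, did not follow them past the test. It had 1188 CPM in U2OS and 1114 CPM in MDA-MB231 cells with doxorubicin, against 1353 CPM in U2OS DMSO and 786 and 970 CPM in MDA-MB231 DMSO. The doxorubicin value was lower than DMSO in U2OS and higher in MDA-MB231, and the mean log2 fold change was 0.23 ± 0.32 (adjusted p = 0.583, edgeR). MANF, a secreted factor held in the ER with BiP, stood at 0.34 ± 0.18 and SDF2L1, a partner of BiP and DNAJB11, at -0.12 ± 0.34, neither of them called. SDF2L1 had 24.3 CPM in U2OS and 13.2 CPM in MDA-MB231 cells with doxorubicin, against 37.8 CPM in U2OS DMSO and 12.9 and 14.9 CPM in MDA-MB231 DMSO, lower in U2OS and within the DMSO range in MDA-MB231.

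Both lectin chaperones and all 6 genes of oxidative folding were called higher with doxorubicin. CALR (calreticulin) rose by 0.72 ± 0.17 and CANX (calnexin) by 0.78 ± 0.15 on the log2 scale. P4HB, the classical protein disulfide isomerase, had 2099 CPM in U2OS and 1878 CPM in MDA-MB231 cells with doxorubicin, against 906 CPM in U2OS DMSO and 936 and 1120 CPM in MDA-MB231 DMSO. The groups did not overlap, and the log2 fold change of 1.16 ± 0.15 (adjusted p = 0.000629, edgeR) passed the test in all 19 alternatives. The isomerases PDIA3, PDIA4 and PDIA6 rose by 1.12 ± 0.17, 0.75 ± 0.13 and 1.10 ± 0.18 on the log2 scale. ERO1L, the widely expressed oxidase that recharges P4HB, had 377 CPM in U2OS and 294 CPM in MDA-MB231 cells with doxorubicin, against 213 CPM in U2OS DMSO and 251 and 229 CPM in MDA-MB231 DMSO. Its gain was larger in U2OS, the mean was 0.61 ± 0.18 (adjusted p = 0.0265, edgeR), and that call was lost in 9 of 19 alternatives. ERO1LB, its paralog, had 21.0 CPM in U2OS and 24.4 CPM in MDA-MB231 cells with doxorubicin, against 4.25 CPM in U2OS DMSO and 12.6 and 11.9 CPM in MDA-MB231 DMSO. Its log2 fold change of 1.45 ± 0.40 (adjusted p = 0.0184, edgeR) was not called without U2OS doxorubicin, U2OS DMSO or MDA-MB231 DMSO replicate 1.

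The sensors and the degradation genes split under doxorubicin. ERN1 (IRE1) had 22.3 CPM in U2OS and 49.4 CPM in MDA-MB231 cells with doxorubicin, against 6.86 CPM in U2OS DMSO and 17.7 and 20.1 CPM in MDA-MB231 DMSO. It was raised in both lines, by 1.45 ± 0.29 on the log2 scale (adjusted p = 0.00448, edgeR). ATF6 had 198 CPM in U2OS and 184 CPM in MDA-MB231 cells with doxorubicin, against 126 CPM in U2OS DMSO and 142 CPM in both MDA-MB231 DMSO libraries, a log2 fold change of 0.52 ± 0.16 (adjusted p = 0.027, edgeR), and MBTPS1 rose by 0.49 ± 0.13 on that scale. These 2 calls were lost under 10 alternatives for ATF6 and 7 for MBTPS1, scaling to total gene counts among them. CREB3L2, an ER-anchored transcription factor, stood at -0.55 ± 0.29 and WFS1, an ER membrane protein, at -0.20 ± 0.22, neither of them called.

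XBP1 was lower in both lines. It had 57.3 CPM in U2OS and 53.0 CPM in MDA-MB231 cells with doxorubicin, against 102 CPM in U2OS DMSO and 79.7 and 81.9 CPM in MDA-MB231 DMSO. The groups did not overlap, and the log2 fold change was -0.79 ± 0.17 (adjusted p = 0.00628, edgeR), a call that was lost without U2OS doxorubicin.

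HERPUD1, a membrane scaffold of the degradation machinery and a long-known target of the UPR, showed the largest change of any member with any drug. It had 5.52 CPM (113 reads) in U2OS and 5.8 CPM (124 reads) in MDA-MB231 cells with doxorubicin, against 63.0 CPM (1231 reads) in U2OS DMSO and 40.6 and 45.9 CPM in MDA-MB231 DMSO. The log2 fold change of -3.15 ± 0.27 (adjusted p = 0.000164, edgeR) was called in all 19 alternatives, between -3.39 and -2.88. The log2 ratios within a line were -3.40 in U2OS (95% interval by counting error alone -3.81 to -3.24) and -2.71 in MDA-MB231 (-3.09 to -2.54). EDEM3, which trims mannose from glycoproteins bound for degradation, had 51.8 CPM in U2OS and 98.0 CPM in MDA-MB231 cells with doxorubicin, against 66.7 CPM in U2OS DMSO and 132 and 159 CPM in MDA-MB231 DMSO. It was lower within each line, by -0.45 ± 0.15 on the log2 scale (adjusted p = 0.0402, edgeR), and the call was lost in 11 of 19 alternatives.

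Other degradation genes moved up with doxorubicin or were not called. EDEM1 and EDEM2, relatives of EDEM3, rose by 0.94 ± 0.20 and 0.68 ± 0.22 on the log2 scale, and SYVN1 (HRD1), the ubiquitin ligase of the pathway, by 0.76 ± 0.17. The call for EDEM2 was lost in 12 of 19 alternatives, with values between 0.40 and 0.90. Its adaptor SEL1L stood at -0.33 ± 0.17, and the derlins DERL1, DERL2 and DERL3, which form part of the channel, at 0.16 ± 0.14, 0.24 ± 0.16 and 0.47 ± 0.51, none of them called. The 3 subunits of the SEC61 translocon rose together, SEC61A1 by 0.70 ± 0.14, SEC61B by 1.13 ± 0.14 and SEC61G by 1.11 ± 0.16 on the log2 scale. SEC23B, a GTPase activator in the COPII coat, had 118 CPM in U2OS and 211 CPM in MDA-MB231 cells with doxorubicin, against 85.8 CPM in U2OS DMSO and 148 CPM in both MDA-MB231 DMSO libraries. It rose by 0.45 ± 0.13 (adjusted p = 0.0242, edgeR), a call lost in 9 of 19 alternatives, while the cargo adaptor SEC24D stood at -0.04 ± 0.29.

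**Figure D2:**
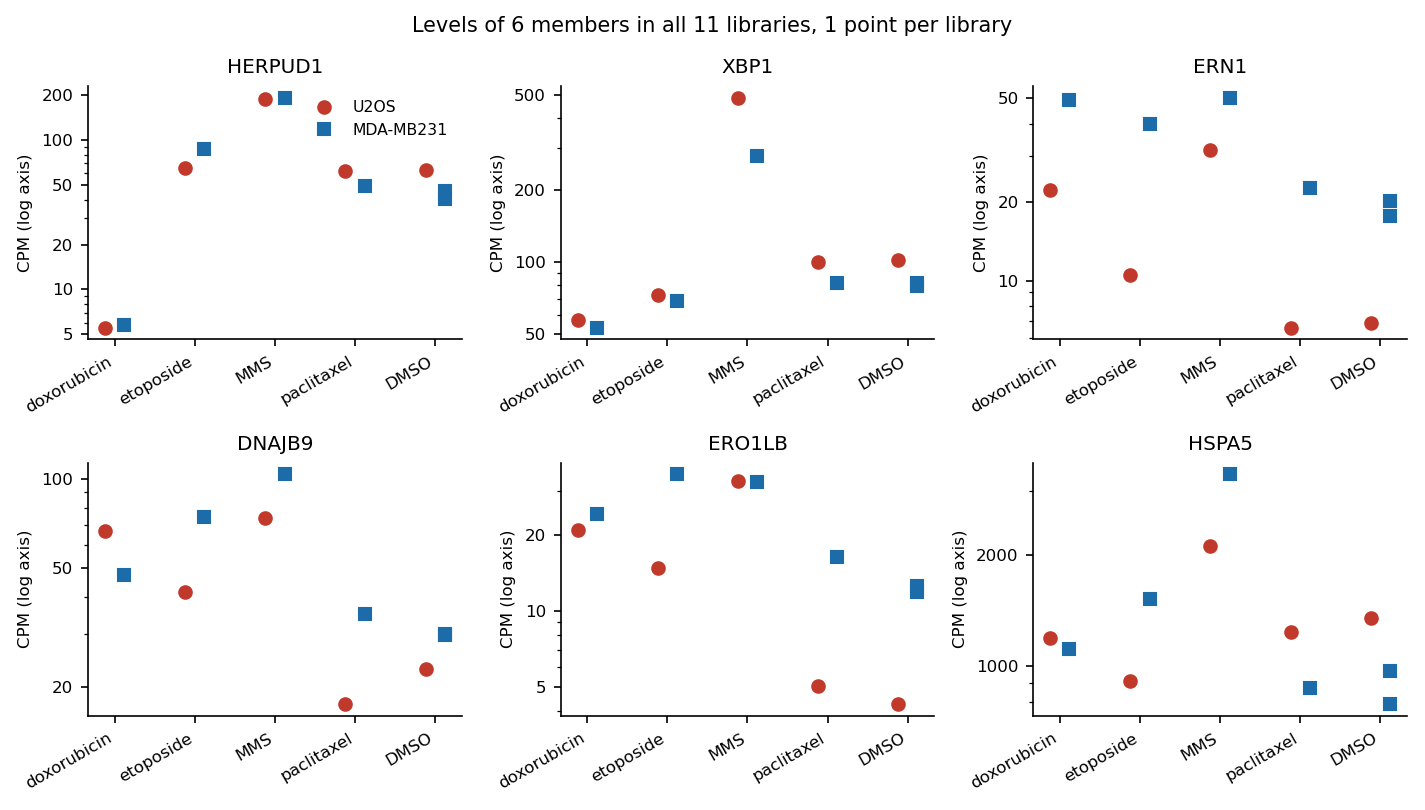
CPM scaled by TMM (y axis, log scale) of HERPUD1, XBP1, ERN1, DNAJB9, ERO1LB and HSPA5 in all 11 libraries, by treatment (x axis), with 1 point per library, circles for U2OS and squares for MDA-MB231. HERPUD1 and XBP1 were lowest with doxorubicin and highest with MMS in both lines, and paclitaxel points lie near the DMSO points.

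MMS raised a smaller set, with HERPUD1 and XBP1 in it but not EDEM3, the remaining gene called lower with doxorubicin. With MMS, 8 of 39 members were called higher (HSPA5, DNAJB9, MANF, CRELD2, ERO1LB, ERN1, XBP1 and HERPUD1) and none lower, where 5.23% of all genes tested were called higher and 5.16% lower. The median log2 fold change was 0.21 over the members and -0.04 over all genes, and the sign was positive in both lines for 24 members, negative in both for 5 and opposite for 10. The drugs share DMSO libraries within each line, so their values against DMSO are not independent of each other.

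XBP1 had 489 CPM in U2OS and 277 CPM in MDA-MB231 cells with MMS, against 102 CPM in U2OS DMSO and 79.7 and 81.9 CPM in MDA-MB231 DMSO. The MMS levels were far above all DMSO levels, with a log2 fold change of 2.08 ± 0.16 (adjusted p = 0.00153, edgeR). HERPUD1 had 191 CPM in U2OS and 194 CPM in MDA-MB231 cells with MMS, against 63.0 CPM in U2OS DMSO and 40.6 and 45.9 CPM in MDA-MB231 DMSO, a log2 fold change of 1.94 ± 0.23 (adjusted p = 0.0053, edgeR). ERN1 had 31.8 CPM in U2OS and 50.4 CPM in MDA-MB231 cells with MMS, against 6.86 CPM in U2OS DMSO and 17.7 and 20.1 CPM in MDA-MB231 DMSO, a log2 fold change of 1.87 ± 0.27 (adjusted p = 0.00876, edgeR). For all 3 genes the MMS and DMSO groups did not overlap, and the share of all genes separated in this way was not counted.

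ERO1LB gave the largest MMS fold change of the members, 2.17 ± 0.38 on the log2 scale (adjusted p = 0.0144, edgeR). It had 32.9 CPM in U2OS and 32.5 CPM in MDA-MB231 cells with MMS, against 4.25 CPM in U2OS DMSO and 12.6 and 11.9 CPM in MDA-MB231 DMSO. The MMS levels were alike in the lines and the DMSO levels were not, so the ratio was 7.02-fold in U2OS and 2.67-fold in MDA-MB231. ERO1L had 148 CPM in U2OS and 209 CPM in MDA-MB231 cells with MMS, against 213 CPM in U2OS DMSO and 251 and 229 CPM in MDA-MB231 DMSO, and was not called (-0.38 ± 0.19, adjusted p = 0.215, edgeR).

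DNAJB9 had 73.7 CPM in U2OS and 104 CPM in MDA-MB231 cells with MMS, against 23.0 CPM in U2OS DMSO and 29.9 and 30.1 CPM in MDA-MB231 DMSO. That is a clear gap in each line, with a log2 fold change of 1.74 ± 0.30 (adjusted p = 0.0131, edgeR). HSPA5 had 2124 CPM in U2OS and 3331 CPM in MDA-MB231 cells with MMS, against 1353 CPM in U2OS DMSO and 786 and 970 CPM in MDA-MB231 DMSO. Both MMS values exceeded every DMSO value, and the ratio was larger in MDA-MB231 (3.43-fold) than in U2OS (1.57-fold), with a mean log2 fold change of 1.31 ± 0.32 (adjusted p = 0.035, edgeR). The call for HSPA5 was lost in 8 of 19 alternatives, among them those without MDA-MB231 doxorubicin, either MMS library or either MDA-MB231 DMSO library, with adjusted p up to 0.36.

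CRELD2 and MANF rose less. CRELD2 had 98.6 CPM in U2OS and 22.6 CPM in MDA-MB231 cells with MMS, against 54.4 CPM in U2OS DMSO and 13.97 and 16.1 CPM in MDA-MB231 DMSO, a log2 fold change of 0.76 ± 0.18 (adjusted p = 0.0344, edgeR). MANF had 158 CPM in U2OS and 160 CPM in MDA-MB231 cells with MMS, against 115 CPM in U2OS DMSO and 92.9 and 85.6 CPM in MDA-MB231 DMSO, a log2 fold change of 0.74 ± 0.18 (adjusted p = 0.0359, edgeR). Their calls were lost in 7 of 19 alternatives for CRELD2 and 9 for MANF.

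The other 7 luminal chaperones were not called with MMS, although 8 of the 11 had an unadjusted p under 0.05. DNAJC3 stood at 0.60 ± 0.20 (1.45-fold in U2OS and 1.51-fold in MDA-MB231), DNAJB11 at 0.55 ± 0.16 and SIL1 at -0.45 ± 0.16. HSP90B1 had 946 CPM in U2OS and 1852 CPM in MDA-MB231 cells with MMS, against 854 CPM in U2OS DMSO and 1153 and 1234 CPM in MDA-MB231 DMSO, and was not called (0.40 ± 0.17, adjusted p = 0.163, edgeR). ATF6 had 132 CPM in U2OS and 149 CPM in MDA-MB231 cells with MMS, close to its DMSO levels of 126 CPM in U2OS and 142 CPM in MDA-MB231 (0.08 ± 0.16). No lectin chaperone and no translocon or COPII subunit was called, and the 3 SEC61 subunits lay between 0.09 ± 0.16 and 0.14 ± 0.14. SDF2L1 went opposite ways in the lines. It had 18.9 CPM in U2OS and 24.4 CPM in MDA-MB231 cells with MMS, against 37.8 CPM in U2OS DMSO and 12.9 and 14.9 CPM in MDA-MB231 DMSO.

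The MMS count rests on few libraries. Without U2OS MMS no gene was called for MMS by edgeR, with 1309 genes and 8 members at an unadjusted p under 0.05, and the single MMS library left is then assumed to vary like the other groups. Without MDA-MB231 DMSO replicate 1, 5 members were called, all higher, where 1.4% of all genes were called higher. Without MDA-MB231 DMSO replicate 2, 5 were called higher (3.28% of all genes), and without U2OS DMSO 4 were (0.694%). Without MDA-MB231 MMS, again with 1 MMS library left, the median log2 fold change was 0.14 over the members and -0.07 over all genes. XBP1, HERPUD1 and ERN1 lost their MMS calls in 2 of 19 alternatives, the one without U2OS MMS and the one that ignores the line. With DESeq2 13 members were called higher and 2 lower for MMS, where it called 8.78% of all genes higher and 9.54% lower. With scaling to total gene counts 13 were called higher and none lower, where 5.73% of all genes were higher and 5.25% lower.

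Etoposide, like doxorubicin a topoisomerase II poison, moved few members. DNAJB9, ERO1LB and SYVN1 were called higher and no member lower, where 7.97% of all genes tested were called higher and 9.23% lower, so 3 of 39 lies near the background. The median log2 fold change was 0.18 over the members and 0.02 over all genes, with the sign positive in both lines for 20 members, negative in both for 9 and opposite for 10. DNAJB9 had 41.6 CPM in U2OS and 74.2 CPM in MDA-MB231 cells with etoposide, against 23.0 CPM in U2OS DMSO and 29.9 and 30.1 CPM in MDA-MB231 DMSO. Both etoposide values lay above the DMSO values, with a log2 fold change of 1.11 ± 0.30 (adjusted p = 0.0391, edgeR). ERO1LB had 14.8 CPM in U2OS and 35.0 CPM in MDA-MB231 cells with etoposide, against 4.25 CPM in U2OS DMSO and 12.6 and 11.9 CPM in MDA-MB231 DMSO, a log2 fold change of 1.41 ± 0.40 (adjusted p = 0.0428, edgeR). SYVN1 had 104 CPM in U2OS and 176 CPM in MDA-MB231 cells with etoposide, against 62.8 CPM in U2OS DMSO and 88.5 and 83.6 CPM in MDA-MB231 DMSO, a log2 fold change of 0.85 ± 0.17 (adjusted p = 0.0149, edgeR). All 3 calls were lost without MDA-MB231 etoposide, U2OS DMSO or MDA-MB231 DMSO replicate 1. With 1 doxorubicin library left out 7 members were called for etoposide, all of them higher. Of all genes, 10.7% were then called higher and 11.6% lower without MDA-MB231 doxorubicin. Without U2OS doxorubicin, 11.1% were called higher and 11.5% lower. DESeq2 called 8 members and limma-voom 6, all of them higher, where DESeq2 called 1740 and limma-voom 1573 of the 15888 genes higher. Scaled to total gene counts, 13 members were called higher and none lower, beside 1855 genes higher and 1030 lower over all genes (1267 and 1467 with TMM), with medians of 0.31 for the members and 0.15 for all genes.

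The genes that doxorubicin lowered were not called with etoposide. HERPUD1 had 65.0 CPM in U2OS and 88.1 CPM in MDA-MB231 cells with etoposide, against 63.0 CPM in U2OS DMSO and 40.6 and 45.9 CPM in MDA-MB231 DMSO, so the gain lay in MDA-MB231 (0.62 ± 0.23, adjusted p = 0.1, edgeR). XBP1 had 73.0 CPM in U2OS and 68.6 CPM in MDA-MB231 cells with etoposide, below its DMSO levels of 102 CPM in U2OS and 79.7 and 81.9 CPM in MDA-MB231 (-0.43 ± 0.17, adjusted p = 0.112, edgeR). ERN1 had 10.5 CPM in U2OS and 39.8 CPM in MDA-MB231 cells with etoposide, against 6.86 CPM in U2OS DMSO and 17.7 and 20.1 CPM in MDA-MB231 DMSO (0.76 ± 0.29, adjusted p = 0.104, edgeR). HSPA5 had 909 CPM in U2OS and 1517 CPM in MDA-MB231 cells with etoposide, below DMSO (1353 CPM) in U2OS and above it (786 and 970 CPM) in MDA-MB231. HSP90B1 had 578 CPM in U2OS and 1209 CPM in MDA-MB231 cells with etoposide, against 854 CPM in U2OS DMSO and 1153 and 1234 CPM in MDA-MB231 DMSO. ATF6 (116 and 166 CPM) and ERO1L (188 and 228 CPM), each in U2OS and then MDA-MB231 cells with etoposide, lay within 0.1 of DMSO on the mean log2 scale, at 0.06 ± 0.16 and -0.10 ± 0.19. SDF2L1 had 21.0 CPM in U2OS and 8.98 CPM in MDA-MB231 cells with etoposide, below DMSO in each line, at -0.50 ± 0.34 and not called.

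Paclitaxel changed no member past the test. None of 15888 genes was called with edgeR (0.0%), and none with DESeq2 or limma-voom. At an unadjusted p under 0.05 there were 110 genes and no member. A fit of the paclitaxel and DMSO libraries alone called 30 genes, again with no member among them. Log2 ratios of the members ran between -0.39 and 0.33 in U2OS and between -0.20 and 0.37 in MDA-MB231, with opposite signs in the lines for 22 of 39. HERPUD1 had 62.6 CPM in U2OS and 49.6 CPM in MDA-MB231 cells with paclitaxel, against 63.0 CPM in U2OS DMSO and 40.6 and 45.9 CPM in MDA-MB231 DMSO. XBP1 stood at 100.4 and 81.6 CPM, HSPA5 at 1237 and 872 CPM, DNAJB9 at 17.5 and 35.2 CPM, ERN1 at 6.58 and 22.6 CPM and ERO1LB at 5.03 and 16.4 CPM in U2OS and in MDA-MB231 cells with paclitaxel. HSP90B1 (831 and 1184 CPM), ATF6 (127 and 141 CPM), ERO1L (208 and 246 CPM) and SDF2L1 (31.7 and 11.98 CPM) were likewise close to DMSO.

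**Figure D3:**
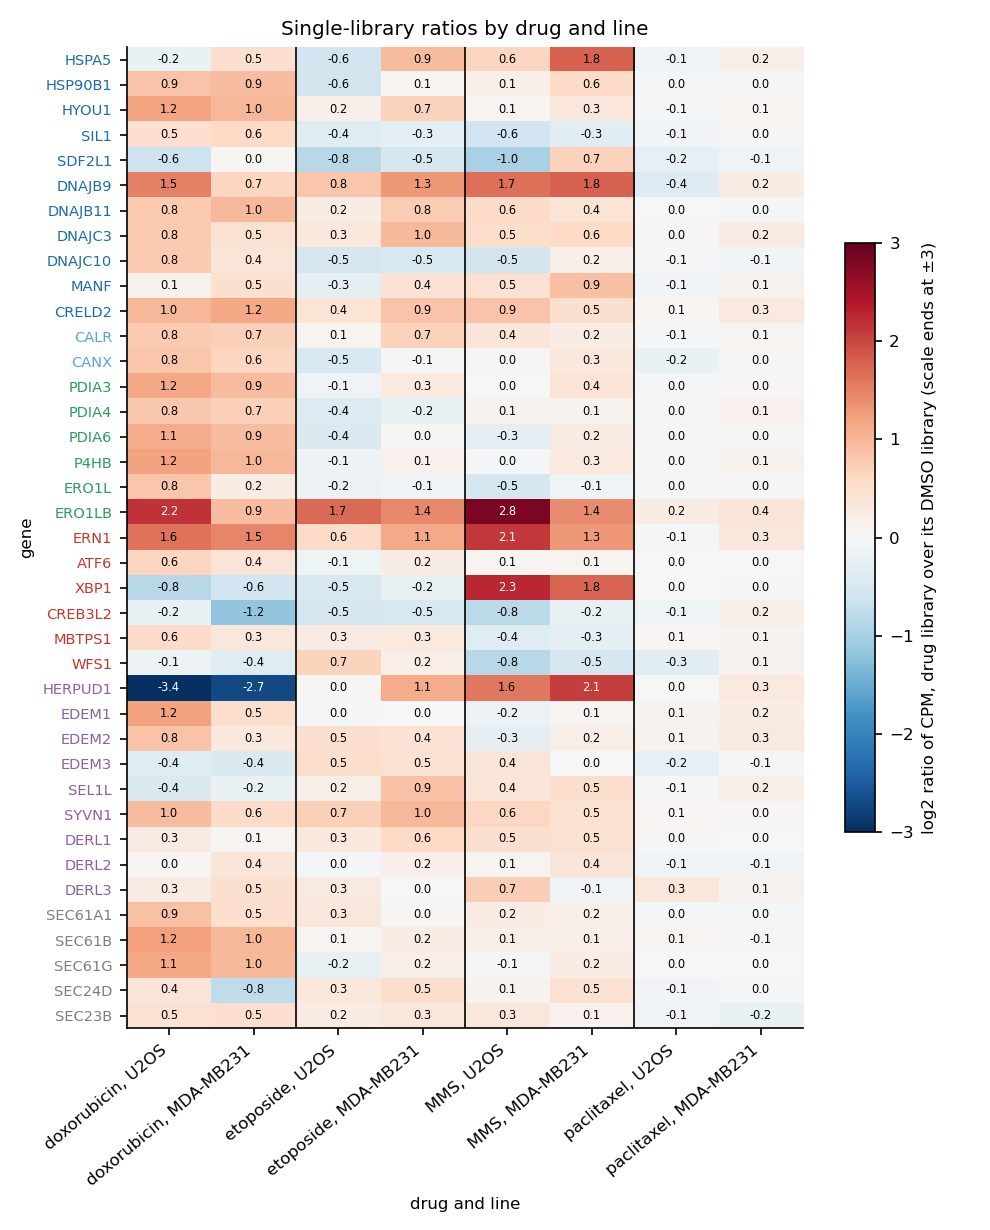
Log2 ratio of CPM, drug library over the DMSO library of its line and title form, for the 39 members (y axis, coloured by role) in each drug and line (x axis), with 0.5 added to each CPM. The colour scale ends at ±3. Doxorubicin columns are red through the chaperone, isomerase and SEC61 genes with HERPUD1 deep blue, MMS columns are red for 5 genes in both lines, and paclitaxel columns are pale.

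Within single lines the fold changes have no replicate check, and a member counts here if it changed 2-fold. Only genes reaching 5 CPM in one library of a pair entered, which 38 members did in each comparison (DERL3 did not). In U2OS cells doxorubicin raised 11 members and lowered 1 (HERPUD1), where 14.3% of genes were 2-fold higher and 18.3% lower. In MDA-MB231 cells it raised 4 (CRELD2, P4HB, ERN1 and SEC61B) and lowered 2 (CREB3L2 and HERPUD1), where 8.19% of genes were higher and 18.8% lower. CREB3L2 had 61.8 CPM in U2OS and 40.3 CPM in MDA-MB231 cells with doxorubicin, against 71.4 CPM in U2OS DMSO and 92.6 and 116 CPM in MDA-MB231 DMSO, so that its loss was mostly in MDA-MB231. With etoposide 1 member was 2-fold higher in U2OS (ERO1LB; 6.11% of genes higher, 7.5% lower), and 4 were in MDA-MB231 (DNAJB9, ERO1LB, ERN1 and HERPUD1; 8.62% of genes higher, 11.1% lower). With MMS 5 members were 2-fold higher in U2OS (DNAJB9, ERO1LB, ERN1, XBP1 and HERPUD1; 7.32% of genes higher, 11.2% lower). The same 5 and HSPA5 were 2-fold higher in MDA-MB231 cells with MMS, where 2.71% of genes were higher and 3.4% lower. No member was 2-fold lower with etoposide or MMS in either line. Scaled to total gene counts, U2OS doxorubicin had 3 members 2-fold higher (DNAJB9, ERO1LB and ERN1) and 2 lower (XBP1 and HERPUD1), where 7.36% of genes were higher and 26.6% lower, so that the count of higher members then lies near the background. Under that scaling etoposide had 2 members 2-fold higher in U2OS (9.34% of genes) and 7 in MDA-MB231 (10.4% of genes), and none lower.

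MMS and doxorubicin were also compared directly, by the difference of their terms in the same fit. Of the members, 5 were called higher with MMS than with doxorubicin and 15 lower, where 20.4% of all genes tested were higher and 22.3% lower. HERPUD1 differed most, with 191 and 194 CPM in MMS libraries and 5.52 and 5.8 CPM in doxorubicin libraries of U2OS and MDA-MB231 cells. Its log2 difference was 5.08 ± 0.31 (adjusted p = 8.04e-05, edgeR), and that of XBP1 was 2.87 ± 0.20 (adjusted p = 0.000106, edgeR). HSPA5 and SEL1L followed at 1.08 ± 0.39 (adjusted p = 0.0498, edgeR) and 0.85 ± 0.20 (adjusted p = 0.00834, edgeR). The lowest with MMS relative to doxorubicin were PDIA6 (-1.11 ± 0.21), SIL1 (-1.04 ± 0.19), EDEM1 (-1.03 ± 0.24) and SEC61G (-1.02 ± 0.19). By role, 5 of the 6 oxidative folding genes were called lower with MMS than with doxorubicin and none higher. The median log2 difference was -0.31 over the members and -0.18 over all genes. Scaled to total gene counts the split was 7 higher and 11 lower, beside 3965 genes higher and 2449 lower over all genes (3235 and 3536 with TMM), and the medians were -0.05 and 0.07. Without U2OS MMS, with 1 MMS library left, the median log2 difference was -0.42 over the members and -0.07 over all genes. Of the 20 called members, 2 (HERPUD1 and XBP1) kept the call in all 18 alternatives, and the share of all genes that did so was not counted. Their log2 differences ran between 4.92 and 5.33 for HERPUD1 and between 2.48 and 3.12 for XBP1.

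Against etoposide, XBP1 (2.51 ± 0.20) and HERPUD1 (1.32 ± 0.28) were called higher with MMS, and WFS1 (-1.21 ± 0.27) and MBTPS1 (-0.62 ± 0.16) lower, where 4.73% and 4.33% of all genes were called in those directions. WFS1 had 20.0 CPM in U2OS and 48.3 CPM in MDA-MB231 cells with MMS, against 57.6 and 87.0 CPM with etoposide. Scaled to total gene counts the same split of 2 and 2 was found, beside 558 genes higher and 1004 lower (752 and 688 with TMM). The count of 4 fell to 2, both higher with MMS, with any DMSO library left out. Of all genes, 2.73% were then called higher without U2OS DMSO, and 1.66% and 2.83% without MDA-MB231 DMSO replicates 1 and 2. None of the 4 calls held in all 18 alternatives. The median log2 difference of the members was 0.03 without U2OS MMS and -0.14 without U2OS etoposide, each with 1 library of that drug left. Against paclitaxel, 5 members were called higher with MMS (XBP1 2.16 ± 0.20, ERO1LB 2.04 ± 0.46, ERN1 1.86 ± 0.33, HERPUD1 1.79 ± 0.28 and DNAJB9 1.78 ± 0.37), where 3.41% of all genes were called higher. That count fell to 3 without MDA-MB231 DMSO replicate 1, where 1.43% of all genes were called higher. None of the 5 calls held in all 18 alternatives. Without U2OS MMS, with 1 MMS library left, the median log2 difference was 0.31 over the members and 0.01 over all genes. DESeq2 called 10 members higher and 1 lower, where it called 7.33% of all genes higher and 8.65% lower.

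Beside the promoter elements, the values were as follows. Of the 11 members with either ER stress element in a window, 5 were called higher with MMS and none lower, with a median log2 fold change of 0.40. Of the 24 with a window and neither element, 3 were called higher and none lower, with a median of 0.13. With doxorubicin, 7 of the 11 were called higher and 2 lower (median 0.78), and 18 of the 24 higher and 1 lower (median 0.66). Of other genes in the table with either element, 19 were tested, and 2 were called higher and 3 lower with MMS (median -0.16) and 5 higher and 4 lower with doxorubicin (median -0.06). Over all genes tested, 5.23% were called higher and 5.16% lower with MMS, and 21.9% higher and 20.6% lower with doxorubicin. The difference between members with and without an element was not tested.

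**Figure D4:**
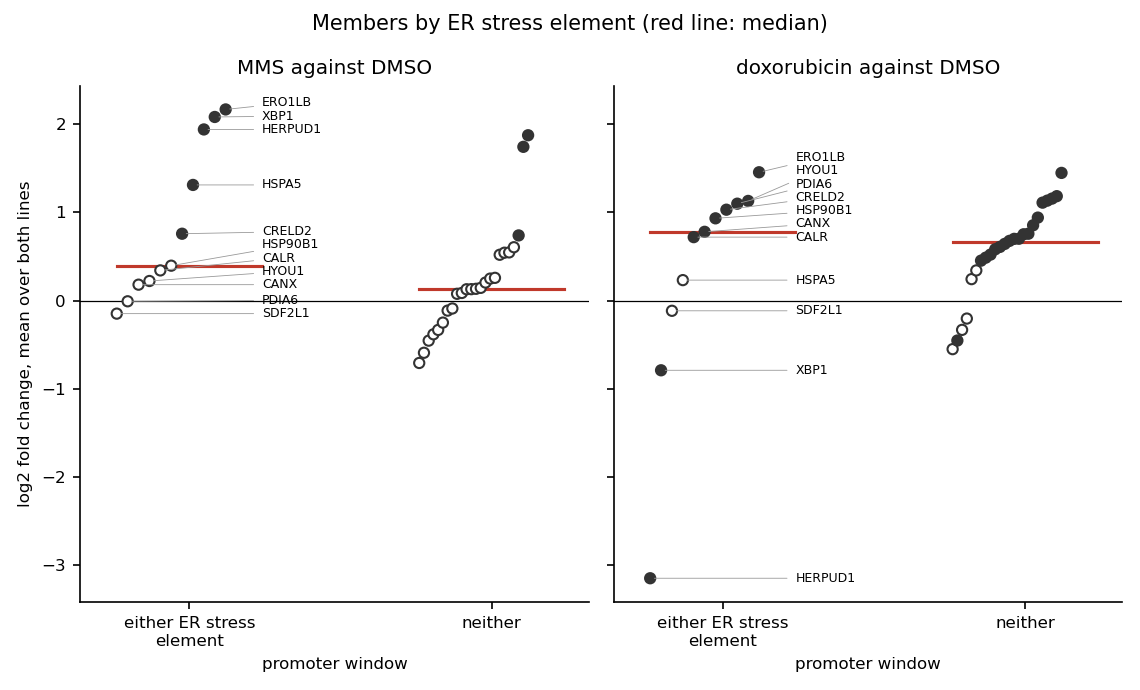
Log2 fold change against DMSO (y axis, mean over both lines) with MMS and with doxorubicin for members whose promoter window holds either ER stress element (left in each panel) or neither. Each point is a gene, filled where called, with a red line at the median. With MMS the medians are 0.40 with an element and 0.13 without, and with doxorubicin HERPUD1 lies at -3.15, below all others.

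Between the lines, 27 of 39 members differed in level, near the 61.0% of all genes tested that did. Adjusted for drug, 10 members were called higher in U2OS than in MDA-MB231 and 17 lower, where 33.1% of all genes tested were higher and 27.9% lower. CRELD2 was higher in U2OS, at 54.4 to 110 CPM, against 13.97 to 32.0 CPM in MDA-MB231, without overlap of the libraries, and its log2 difference was 1.82 ± 0.13 (adjusted p = 4.7e-06, edgeR). DERL3 (1.46 ± 0.34), EDEM2 (0.98 ± 0.15) and SDF2L1 (0.83 ± 0.23) came next. ERN1 was lower in U2OS, at 6.58 to 31.8 CPM with a median of 10.5, against 17.7 to 50.4 CPM with a median of 31.2 in MDA-MB231. Its log2 difference was -1.34 ± 0.19 (adjusted p = 0.000327, edgeR), and the ranges overlapped because of the U2OS MMS and doxorubicin libraries. DNAJC3 (-1.27 ± 0.14), SIL1 (-1.26 ± 0.11) and HYOU1 (-1.24 ± 0.12) were lower to a like degree. HSPA5 (-0.03 ± 0.21), HERPUD1 (0.11 ± 0.16) and the 3 SEC61 subunits were not called. The mean drug response, tested as an added term with 3 residual degrees of freedom, was called different between the lines for no gene (0.0%), with 204 genes and 1 member at an unadjusted p under 0.05. DESeq2 called 2 genes and limma-voom none, with no member among them. That member was HSPA5, whose response was lower in U2OS by -0.94 ± 0.37 on the log2 scale (adjusted p = 1, edgeR).

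**Figure D5:**
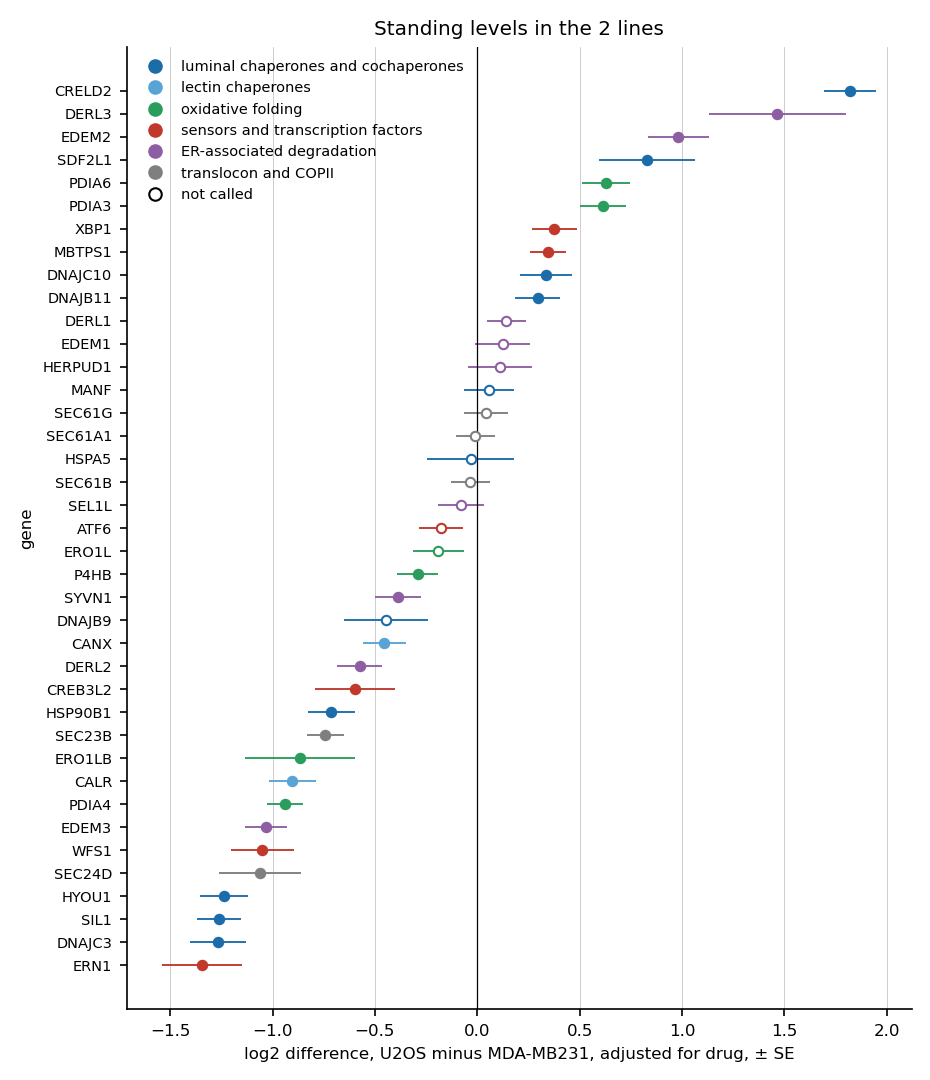
Log2 difference in level between U2OS and MDA-MB231 (x axis, adjusted for drug, ± SE) for the 39 members in order (y axis), coloured by role and filled where called. CRELD2 stands highest at 1.82 and ERN1 lowest at -1.34, with both directions in most roles.

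Other genes of the same pathways were counted from lists drawn up for this purpose with earlier results of these data known. The PERK arm and targets of ATF4 or CHOP stood apart from the members with MMS, with 21 of 25 called higher and none lower and a median log2 fold change of 1.56. Of all genes tested, 5.23% were called higher and 5.16% lower with MMS. ATF3 and DDIT3 (CHOP), both stress-induced transcription factors, and CHAC1, which degrades glutathione, rose most, by 4.64 ± 0.54, 3.28 ± 0.37 and 3.92 ± 0.33 on the log2 scale. DDIT3 had 178 CPM in U2OS and 67.8 CPM in MDA-MB231 cells with MMS, 12.4 and 23.4 CPM with doxorubicin, 25.4 and 32.2 CPM with etoposide and 10.5 and 13.7 CPM with paclitaxel, against 10.1 CPM in U2OS DMSO and 16.6 and 14.7 CPM in MDA-MB231 DMSO. The MMS change was called for DDIT3 (adjusted p = 0.0052, edgeR) and the others were not, with edgeR adjusted p of 0.83 for doxorubicin, 0.159 for etoposide and 1 for paclitaxel. DDIT3 was also called higher with MMS than with each other drug. With doxorubicin 3 of these 25 genes were called higher, ATF3 among them (2.997 ± 0.58), and 6 lower, among them the stress-induced genes TRIB3 (-2.76 ± 0.31) and DDIT4 (-2.54 ± 0.26). Beside the 21.9% of all genes called higher and 20.6% called lower, the lower count lies near the background and the higher count below it. With etoposide 4 were called higher, led by ATF3 (2.13 ± 0.55), NDRG1 (1.99 ± 0.29) and SESN2 (1.42 ± 0.30), where 7.97% of all genes were called higher.

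With doxorubicin, further folding enzymes and genes of the lectin cycle had 18 of 27 called higher and 2 lower, led by SELM (1.32 ± 0.29), TMX4 (1.30 ± 0.17) and FKBP10 (1.26 ± 0.20). Genes of the translocon, signal peptidase and oligosaccharyltransferase had 18 of 30 higher and 3 lower, with DDOST (1.35 ± 0.16) and SSR4 (1.32 ± 0.15) raised and SRP68 (-1.89 ± 0.18) lowered. Of 22 further degradation genes tested, 9 were higher and 5 lower, with OS9 (1.37 ± 0.15) and SELK (1.20 ± 0.19) raised and TRIM13 (-1.70 ± 0.27) lowered. The COPII list split 6 higher and 6 lower of 20 (KDELR1 0.96 ± 0.17, SEC24B -1.26 ± 0.21, SAR1B -0.90 ± 0.15), and further UPR regulators 4 and 4 of 17 (TMBIM6 1.17 ± 0.19, TRAF2 -1.90 ± 0.21, CREBZF -1.21 ± 0.21). Set against the 21.9% of all genes called higher and 20.6% called lower with doxorubicin, the regulators lie near the background and the COPII list a little above it in both directions.

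With MMS few genes of these lists were called, where 5.23% of all genes tested were called higher and 5.16% lower. No gene of the folding list or of the translocon, signal peptidase and oligosaccharyltransferase list was called, with 5 of 27 and 4 of 30 at an unadjusted p under 0.05. The degradation list had 2 of 22 higher, SELK (0.67 ± 0.18) and UBE2J1 (0.57 ± 0.13). The COPII list had 2 of 20 higher, BET1 (0.95 ± 0.24) and SEC16A (0.56 ± 0.14). The regulators had 2 of 17 higher, UFM1 (1.02 ± 0.16) and NFE2L2 (0.96 ± 0.16), and 1 lower, ATF6B (-0.75 ± 0.15). With etoposide 7.97% of all genes tested were called higher and 9.23% lower. Of 22 degradation genes 4 were higher (SELK 0.74 ± 0.19, OS9 0.68 ± 0.15 and RNF139 0.63 ± 0.19 foremost). The translocon, signal peptidase and oligosaccharyltransferase list had 3 of 30 lower (SSR3 -0.99 ± 0.24, STT3A -0.60 ± 0.14, SRP72 -0.53 ± 0.14). The COPII list had 2 of 20 higher (SEC24C 0.72 ± 0.16, SAR1B 0.53 ± 0.15). The folding list had 3 of 27 higher, with SELM at 1.26 ± 0.30 and TMX4 at 1.16 ± 0.17. The 1 gene of that list called lower, TRAP1 (-1.15 ± 0.19), encodes a mitochondrial chaperone. The regulators had 2 of 17 higher and 2 lower (UFM1 0.55 ± 0.16, ITPR3 -0.85 ± 0.18, MBTPS2 -0.75 ± 0.20). Apart from the degradation list, these etoposide counts lie near the background. With paclitaxel no gene of any of the 6 lists was called by edgeR.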

How the data were processed

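The authors deposited, for each of 11 RNA-seq libraries, a table of raw read counts for 23228 gene symbols with 5 summary rows. Base calling used CASAVA 1.8.2, alignment TopHat2 2.0.8b and counting HTSeq, per the submitters' processing notes. Whether counting used strand is not given in the sources used here. Reads of a gene and an overlapping antisense gene therefore cannot be told apart. The summary rows stayed out of library sizes and tests (reads aligned to several places made up 28.4% to 37.5% of all reads tabulated, and reads outside genes 7.16% to 9.7%). Gene counts per library ran between 16774156 and 31588683.

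Counts were fitted in R 4.3.3 with edgeR 4.0.16 (TMM, filterByExpr, robust quasi-likelihood test, Benjamini-Hochberg adjustment over 15888 genes, threshold 0.05). The fit took in all 11 libraries, with 4 drug terms and 3 block levels (the U2OS libraries, the MDA-MB231 libraries, and the MDA-MB231 libraries with a time in the title), which left 4 residual degrees of freedom and a common biological coefficient of variation of 0.213. The pairing of drug and DMSO libraries comes from the cell line and, in MDA-MB231, from the title form. SE was obtained by dividing the fold change on the log2 scale by √F. Single-line ratios used CPM plus 0.5, which pulls low genes toward 0, and intervals are exact binomial 95% intervals that cover counting error only. No pair of libraries compared agreed within sampling noise (chi-square per degree of freedom 8.04 or more). Scripts were checked on simulated counts.

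The members, the gene lists and the tests were chosen with earlier results of these data known. Named are every member, library by library up to 4 called members per direction and drug with a fixed set (HSPA5, HSP90B1, DNAJB9, SDF2L1, HERPUD1, XBP1, ERN1, ATF6, ERO1L, DDIT3), up to 3 called genes per other list and drug, and up to 4 members per direction for the other contrasts. The alternatives were DESeq2 1.42.0, limma-voom (limma 3.58.1), other scaling, filter, block and library sets, leaving out each library, and 1 mismatch in the promoter search. Promoters were searched in Python 3.11.15.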

Additional observations from a re-analysis of the deposited data

Results flagged for a closer look

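SDF2L1, a partner of BiP, moved in opposite directions in the lines with MMS, by at least 1.5-fold in each. Its log2 ratio of MMS over DMSO was -0.98 in U2OS and 0.69 in MDA-MB231, with 1 library per line and treatment. The difference for MMS alone was not tested, since a term for 1 line and 1 drug has no replicate. Averaged over the 4 drugs, the response of SDF2L1 in U2OS minus that in MDA-MB231 was -0.83 ± 0.46 on the log2 scale, which was not called (adjusted p = 1, edgeR).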

How the results depend on the processing

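No called member changed sign in any alternative, while many calls were lost, and 5 of 29 doxorubicin calls (HERPUD1, P4HB, DNAJB11, SEC61B and SEC61G), none of 8 for MMS and none of 3 for etoposide held in all 19. Members called with one library left out ran between 18 and 29 for doxorubicin, 0 and 8 for etoposide, 0 and 11 for MMS, 2 and 21 for MMS minus doxorubicin, 0 and 6 for MMS minus etoposide, 0 and 5 for MMS minus paclitaxel, and 19 and 27 for the line level, and stayed 0 for paclitaxel and the line response. The share of all genes called also varied. With 1 DMSO library left out it ran between 25.6% and 39.1% for doxorubicin, 0.31% and 15.2% for etoposide, and 1.38% and 7.8% for MMS. For MMS minus doxorubicin, etoposide and paclitaxel it ran between 36.2% and 38.6%, 2.87% and 5.52%, and 3.03% and 8.63%. Without the replicate block the count was 5 for doxorubicin (4 higher and 1 lower, beside 5.08% and 6.88% of all genes). It was 6 for MMS minus doxorubicin (3 higher and 3 lower, beside 8.36% and 4.62%). In that fit no gene was called for etoposide, MMS, MMS minus etoposide or MMS minus paclitaxel. The line response without that block gave 13 (24.6% of all genes). ERN1 was reversed there at -1.38 (adjusted p = 0.0441, edgeR), because that term takes up the lines' difference in level. DESeq2 gave 8 for etoposide, 15 for MMS and 11 for MMS minus paclitaxel, with 24.1%, 18.3% and 16.0% of all genes called (17.2%, 10.4% and 7.26% by edgeR), and limma-voom 6 for etoposide (21.5% of genes). A block for line alone gave 7 for MMS minus etoposide (15.3% of all genes), and the MMS and DMSO libraries alone 5 for MMS (4.41% of all genes). Scaling to total gene counts, chosen for these contrasts after the data were seen, gave 13 for etoposide and 13 for MMS, with 2885 and 1744 of all genes called. For members at 2-fold it gave 5 for U2OS doxorubicin (7.36% of genes higher, 26.6% lower), 2 for U2OS etoposide (9.34%, 5.24%) and 7 for MDA-MB231 etoposide (10.4%, 9.58%). With 1 mismatch allowed, 42.9% of members held the ER stress element, against 1.89% of all genes. Where not stated, the cause was not tested. Depth limits DERL3 (9 reads in a library), and 1 library per line and drug limits every other call.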

Other observations

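Some neighbours of the members differed strongly in level between the lines. STC2, of the PERK arm list, was higher in U2OS by 6.40 ± 0.51 (adjusted p = 1.02e-05, edgeR), and in the same fit it was higher with MMS than with etoposide by 4.05 ± 0.75 (adjusted p = 0.0183, edgeR). CREB3L1, an ER-anchored transcription factor related to CREB3L2, was lower in U2OS by -1.58 ± 0.27 (adjusted p = 0.000842, edgeR). SEC24D had 72.5 CPM in U2OS and 70.6 CPM in MDA-MB231 cells with doxorubicin, against 54.9 CPM in U2OS DMSO and 119 and 116 CPM in MDA-MB231 DMSO, so that it moved up in 1 line and down in the other. That difference was not tested.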
